A study of Homo sapiens with 9 samples.

Results

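The 10 genes described here are the hypoxia-inducible transcription factors HIF1A, EPAS1 and ARNT, the prolyl hydroxylases EGLN1 and EGLN3, and 5 genes long used as readouts of the pathway, namely VEGFA, ADM, NDRG1, ANKRD37 and CA9. They were chosen by name, with earlier results of these data known. Each symbol matched exactly 1 of the 61487 genes in the count table. The filter on low counts kept 9 of them among 14630 genes tested, and CA9 was too low to test. The cells were OVCAR4, a long-established line from a human high-grade serous ovarian carcinoma, in 3 groups of 3 libraries. Naive cells, which had not been made resistant to platinum, received the solvent DMSO. Pt-resistant cells, 1 derivative of the same line obtained by continued exposure to cisplatin, received DMSO as well. The inhibitor-treated group was the same Pt-resistant derivative under EPZ015666, a small-molecule inhibitor of the arginine methyltransferase PRMT5, at 5 uM for 5 days. All 3 groups are labelled wild type, and the labels name no low-oxygen step for any of them. Replicate libraries came from separate wells, so p-values reflect only well-to-well spread, possibly technical, and no second resistant derivative was compared.

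Hypoxia-inducible factors pair an unstable alpha subunit, encoded by HIF1A or by EPAS1 (which makes HIF-2 alpha), with the stable partner ARNT. When oxygen is present, the EGLN enzymes hydroxylate prolines of the alpha subunit, and the VHL ubiquitin ligase then directs it to the proteasome. When oxygen is short, the alpha subunit accumulates, pairs with ARNT and binds hypoxia response elements beside genes for vessel growth, pH control, sugar use and feedback. Most of this control acts on protein, whereas mRNA was measured here.

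Core letters of the hypoxia response element, ACGTG or GCGTG, were searched on both strands in windows from 250 bases before to 50 bases after each annotated start. RefSeq's table for GRCh38.p14 held 8 of the 10 genes, with 2 starts for HIF1A, and had no entry for VEGFA and NDRG1. Of those 8 genes, 6 held a core (HIF1A, EPAS1, CA9, EGLN1, ADM and ANKRD37) and 2 did not (ARNT and EGLN3). HIF1A's core lay at 1 of its 2 starts, so 6 of the 9 windows held one. Among all 35097 windows of the table, 48.4% held either core, 21.4% held ACGTG and 36.5% held GCGTG. The ANKRD37 window held 3 cores, and the palindrome CACGTG, which contains ACGTG on each strand and is therefore counted on both, was in it and in 7.25% of all windows. A match describes letters and was not tested as a binding site, and a window with no match says nothing about elements farther away. The sequences shown are the 250 bases upstream of the 2 targets whose mRNA was lowest (ANKRD37 and CA9) and of 2 more genes. Those 2, EGLN1 and ADM, changed most in one of the comparisons among the other genes with a core. Each sequence runs 5′ to 3′ along the gene, with the cores of either strand in capitals.
ANKRD37, chr4:185396591-185396840, plus strand: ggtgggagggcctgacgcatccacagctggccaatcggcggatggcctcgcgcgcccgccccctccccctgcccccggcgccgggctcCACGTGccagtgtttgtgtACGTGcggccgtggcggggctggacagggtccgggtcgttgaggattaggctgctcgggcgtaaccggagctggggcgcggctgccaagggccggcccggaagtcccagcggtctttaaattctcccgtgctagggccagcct
CA9, chr9:35673678-35673927, plus strand: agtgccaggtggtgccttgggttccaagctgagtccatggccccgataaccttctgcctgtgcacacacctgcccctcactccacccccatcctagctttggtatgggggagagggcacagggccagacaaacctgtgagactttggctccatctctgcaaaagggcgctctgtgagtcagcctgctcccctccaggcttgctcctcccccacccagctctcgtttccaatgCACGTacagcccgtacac
EGLN1, chr1:231422288-231422537, minus strand: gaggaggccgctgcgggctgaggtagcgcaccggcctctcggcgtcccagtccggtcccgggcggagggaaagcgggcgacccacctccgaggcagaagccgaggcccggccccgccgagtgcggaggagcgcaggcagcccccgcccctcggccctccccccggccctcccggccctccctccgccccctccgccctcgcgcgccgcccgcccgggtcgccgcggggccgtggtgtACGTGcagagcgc
ADM, chr11:10304823-10305072, plus strand: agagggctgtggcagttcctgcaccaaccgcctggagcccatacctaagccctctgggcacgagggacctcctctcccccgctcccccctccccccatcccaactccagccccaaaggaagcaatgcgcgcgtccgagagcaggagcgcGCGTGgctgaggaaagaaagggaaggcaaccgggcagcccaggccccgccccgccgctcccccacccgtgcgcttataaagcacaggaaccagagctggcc
In ANKRD37 the capitals CACGTG cover a core on each strand. In CA9 the core lies on the opposite strand and is read here as CACGT, and in ADM the core is GCGTG.

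Library totals ran from 14320929 to 19114811 counts, and every pair of libraries of a group differed by more than counting noise. Epithelial and serous markers summed to 4320 to 4630 CPM (counts scaled to a common library total) in naive, 4040 to 4180 in Pt-resistant and 3320 to 3370 in inhibitor-treated libraries, although the serous marker WT1 had a mean of only 0.25, 0.318 and 0.223 CPM. KRT7 was the largest part, with means of 1929, 2333 and 1638 CPM, and single markers did not all follow the sum. By the edgeR test described below, 1 of 9 tested markers was higher and 7 lower in Pt-resistant than in naive cells (88.9%, against 59.1% of all tested genes). Under the inhibitor, 3 were higher and 5 lower than in Pt-resistant cells (88.9%, against 62.4%). Immune markers summed to 0.687 to 0.909, 0.24 to 0.479 and 2.38 to 3.47 CPM in the 3 groups, and fibroblast markers to 5.98 to 8.41, 3.62 to 4.26 and 9.65 to 13.4 CPM, nearly all of it COL1A1, with 3 counts of DCN in all. Endothelial markers summed to 136 to 155, 122 to 129 and 84.2 to 99 CPM, most of it from PECAM1 and CDH5. Mitochondrially encoded mRNAs took 5.97% to 7.82% of counts in naive, 4.45% to 5.19% in Pt-resistant and 6.26% to 8.31% in inhibitor-treated libraries. The part of these differences in the results that follow was not tested.

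Among the 10 genes, HIF1A mRNA stood far above the others. Scaled to the length of annotated exons, its level in naive cells was 95.5 ± 7 CPM per kb (SD, n = 3), followed by VEGFA at 15.8 ± 0.843 and ARNT at 15.3 ± 0.995, whose libraries overlapped. EPAS1 at 10.6 ± 1.15 and NDRG1 at 9.31 ± 0.398 CPM per kb came next and overlapped as well. Lower down, and each apart from its neighbours, were EGLN3 at 6.59 ± 1.47, ADM at 3.29 ± 0.248, EGLN1 at 2.76 ± 0.118 and ANKRD37 at 0.268 ± 0.129 CPM per kb. Under the inhibitor the order of the middle genes was different. EPAS1 at 13 ± 1.07, ARNT at 12.8 ± 1.17 and NDRG1 at 11.7 ± 0.228 CPM per kb overlapped in turn, ADM at 9.28 ± 0.977 lay above VEGFA at 8.12 ± 0.0511, and EGLN1 reached 5.81 ± 0.404. The VEGFA value is set against 14431 annotated exon bases of many isoforms, which lowers its level per kb if few of these are used, while ADM has 2718.

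**Figure D1:**
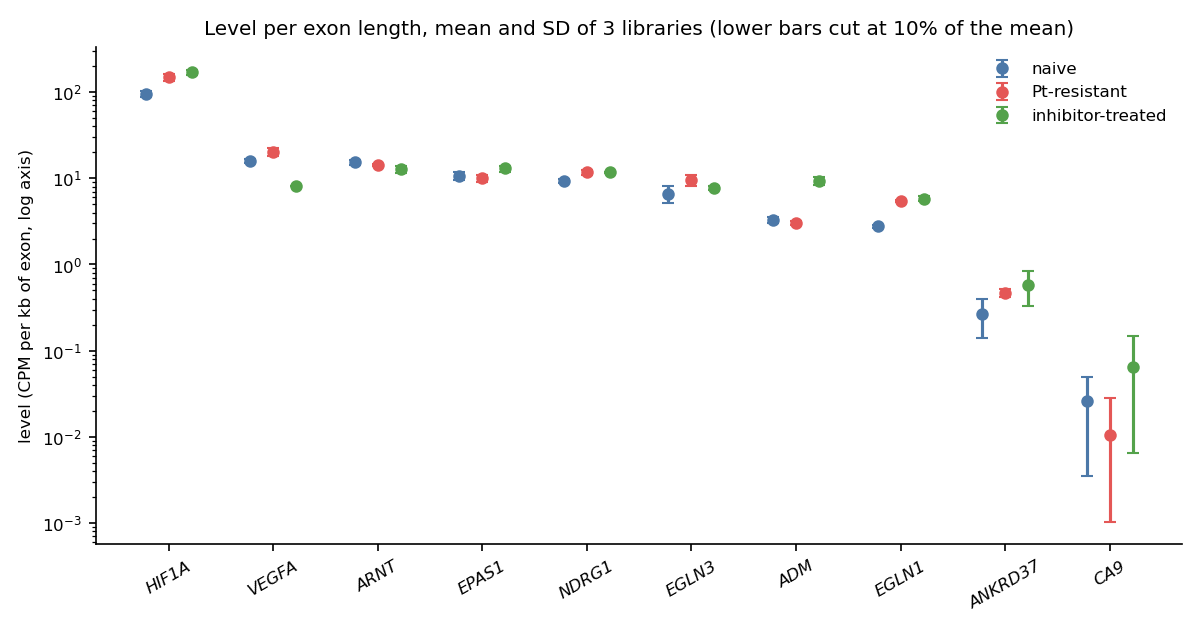
Mean level per exon length of the 10 genes (vertical log axis, CPM per kb of exon) in naive, Pt-resistant and inhibitor-treated cells, with bars of 1 SD over 3 libraries and lower bars cut at 10% of the mean. HIF1A is highest in all 3 groups and CA9 lowest, and VEGFA and ADM change places in the inhibitor-treated group.

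The first comparison asked how the pathway's mRNAs differed between the Pt-resistant and the naive state. Of the 9 tested genes, 5 were higher in Pt-resistant cells and none was lower. These were the factor gene HIF1A, both hydroxylase genes and the targets VEGFA and NDRG1. Across all tested genes, 29.8% were called higher, 29.4% lower and 59.1% in either direction by edgeR's quasi-likelihood test with Benjamini-Hochberg adjustment at 0.05, so the share of members called, 55.6%, was close to that of all genes. The median log2 fold change was 0.36 over the 9 genes and 0.01 over all tested genes. None of the 9 reached a 2-fold difference, which 15.9% of tested genes did. Libraries of both groups lay apart for 5 of the 9 and for 62.5% of all tested genes. In bulk RNA, fewer cells of a kind and less RNA per cell cannot be told apart.

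HIF1A encodes the widely expressed alpha subunit. Its level was 459.8, 531 and 485 CPM in the naive libraries, 842, 707 and 734 in the Pt-resistant ones and 858, 948 and 837 in the inhibitor-treated ones. Every naive library lay below every other, while Pt-resistant replicate 1 lay above inhibitor-treated replicate 3. Pt-resistant cells were higher than naive cells by 0.63 ± 0.0848 (log2 fold change ± SE, 95% interval 0.45 to 0.80, adjusted p = 9.31e-07 by edgeR).

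EPAS1, the alpha subunit best known from endothelium and kidney, was read at 76.3, 86.0 and 69.3 CPM in naive, 81.9, 67.3 and 70.2 in Pt-resistant, and 87.2, 103 and 93.9 in inhibitor-treated libraries. Naive and Pt-resistant libraries overlapped, and the inhibitor-treated ones lay above all of them. The difference between Pt-resistant and naive cells did not pass, at -0.08 with a 95% interval of -0.27 to 0.11 on the log2 scale (edgeR adjusted p = 0.485).

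ARNT, the common partner, was at 94.2, 107 and 97.6 CPM in naive, 95.9, 89.8 and 92.0 in Pt-resistant, and 74.7, 89.5 and 85.4 in inhibitor-treated libraries. Naive and Pt-resistant libraries overlapped, and those under the inhibitor were the lowest of the 9. Pt-resistant against naive cells gave -0.10 with an interval of -0.27 to 0.06 (edgeR adjusted p = 0.279).

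EGLN1 encodes PHD2, the main oxygen-dependent hydroxylase of the alpha subunits. It was at 19.2, 20.1 and 20.9 CPM in naive, 38.9, 41.4 and 39.3 in Pt-resistant, and 38.8, 43.5 and 44.3 in inhibitor-treated libraries. The naive libraries lay close together and far below the other 6, which overlapped among themselves. The 1.99-fold difference between Pt-resistant and naive cells (log2 0.99 ± 0.0896, interval 0.81 to 1.18, edgeR adjusted p = 1.64e-09) was the largest among the called members in this comparison.

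EGLN3 encodes PHD3, a relative that hypoxia itself induces in many cells. Its values were 45.1, 60.6 and 39.8 CPM in naive, 79.0, 59.6 and 71.1 in Pt-resistant, and 58.9, 59.1 and 53.6 in inhibitor-treated libraries. Naive replicate 2 reached above Pt-resistant replicate 2, so the groups overlapped even though the difference passed, at 0.53 ± 0.117 on the log2 scale (edgeR adjusted p = 0.000442).

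VEGFA encodes the main ligand of vessel growth. Naive libraries held 225, 242 and 219 CPM, Pt-resistant libraries 319, 259.9 and 301.5, and inhibitor-treated libraries 117, 118 and 117. The 3 groups did not overlap, with Pt-resistant cells highest and inhibitor-treated cells lowest. Pt-resistant cells exceeded naive cells by 0.36 ± 0.0802 on the log2 scale (interval 0.20 to 0.53, edgeR adjusted p = 0.000473).

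NDRG1, a differentiation-related gene often taken as a marker of hypoxic tissue, was at 87.0, 94.4 and 92.9 CPM in naive, 119, 108 and 119 in Pt-resistant, and 113, 117 and 114 in inhibitor-treated libraries. All 6 resistant libraries lay above the naive ones and overlapped with each other. Pt-resistant cells were higher by 0.33 ± 0.0751 on the log2 scale (edgeR adjusted p = 0.000522).

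ADM encodes the precursor of adrenomedullin, a vasodilator peptide. Its level was 9.66, 8.32 and 8.88 CPM in naive, 8.66, 7.83 and 8.36 in Pt-resistant, and 28.0, 22.7 and 25.0 in inhibitor-treated libraries. Both DMSO groups overlapped, and the inhibitor-treated libraries were all far above them. Pt-resistant against naive cells gave -0.12 with an interval of -0.38 to 0.14 (edgeR adjusted p = 0.437).

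ANKRD37 encodes a small ankyrin-repeat protein and was near the limit of these data, with 8 to 38 counts per library. It was at 0.455, 0.55 and 1.07 CPM in naive, 1.08, 1.22 and 1.35 in Pt-resistant, and 2.25, 1.07 and 1.19 in inhibitor-treated libraries. The naive libraries lay below the Pt-resistant ones, with naive replicate 3 just under the lowest of these. Inhibitor-treated replicate 2, at 1.069 CPM, was not above naive replicate 3, at 1.071 CPM. The log2 difference of 0.82 ± 0.382 between Pt-resistant and naive cells did not pass (edgeR adjusted p = 0.0684), and it passed without naive replicate 3, at 1.28 with adjusted p = 0.0188. Of its annotated exon bases, 35.2% are shared with UFSP2 on the opposite strand, and reads over both genes could be left out of the counts.

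CA9 encodes a cell-surface carbonic anhydrase that is among the most used tissue markers of hypoxia. It had 8 counts in all 9 libraries together. Naive cells held 2 of these, Pt-resistant cells 1 and inhibitor-treated cells 5, of which 4 were in replicate 2. Pooled over each group, this was 0.0416 CPM (exact Poisson 95% interval 0.00504 to 0.15), 0.0183 CPM (0.000463 to 0.102) and 0.103 CPM (0.0334 to 0.24), and these intervals overlapped. A difference was not detectable at this depth, and 38.5% of CA9's exon bases are shared with ARHGEF39 on the opposite strand.

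**Figure D2:**
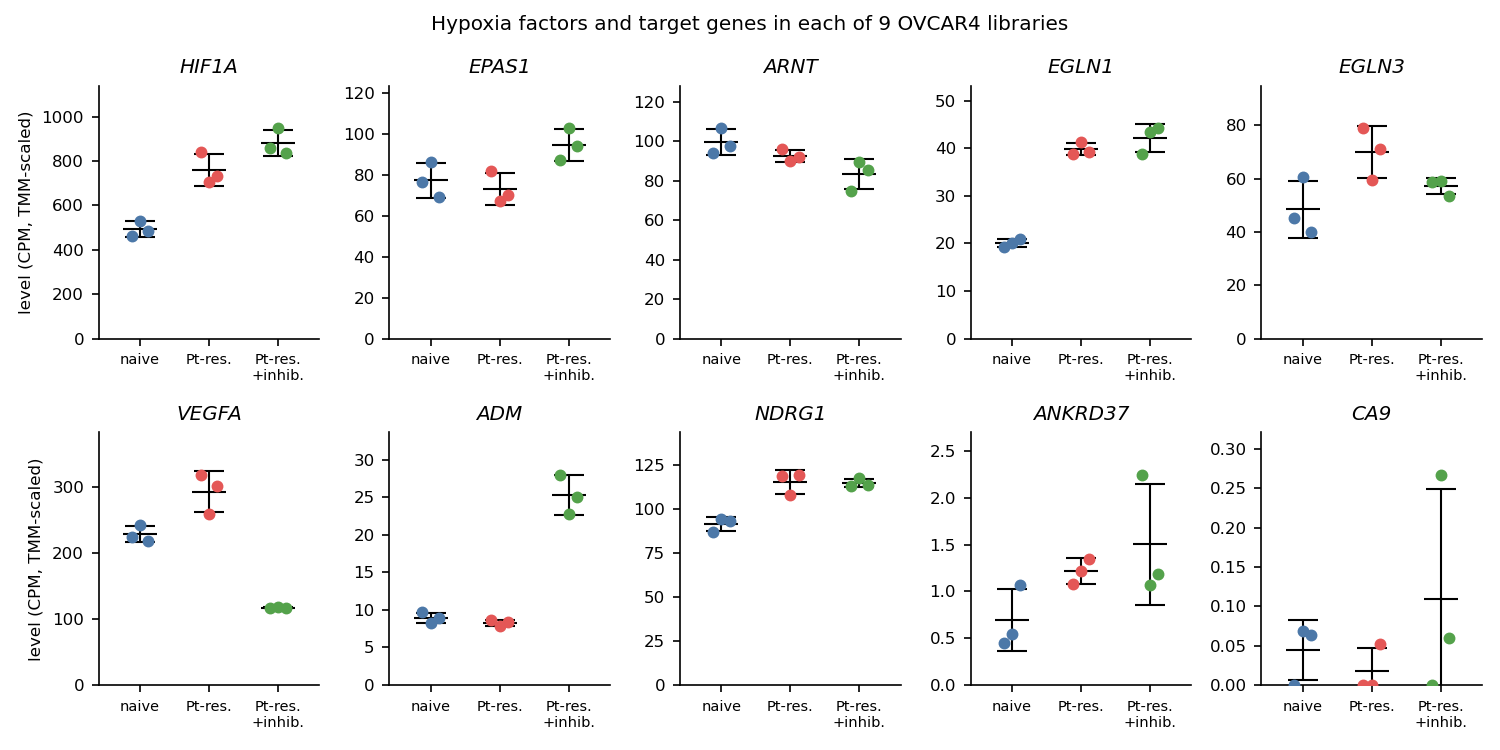
Level of each of the 10 genes (vertical axis, TMM-scaled CPM from 0) in the 9 libraries, with 1 dot per library and black bars for the mean and SD of 3. EGLN1 and HIF1A are lowest in the 3 naive libraries, VEGFA drops to 117 or 118 CPM and ADM rises to 22.7 CPM or more in the 3 inhibitor-treated ones.

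The next comparison asked what 5 days of the PRMT5 inhibitor did in Pt-resistant cells, against the same Pt-resistant DMSO libraries used above. VEGFA fell and ADM rose, and these were the only members whose difference reached 2-fold. In all, 3 of the 9 tested genes were higher (HIF1A, EPAS1 and ADM) and 2 were lower (VEGFA and EGLN3), a share of 55.6%. Across all tested genes, 31.9% were called higher, 30.5% lower and 62.4% in either direction, and 17.9% differed by 2-fold or more. Libraries of both groups lay apart for 5 of the 9 members and for 66.5% of all tested genes.

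VEGFA was 2.50-fold lower under the inhibitor, with a log2 fold change of -1.32 ± 0.0821 (interval -1.49 to -1.16, edgeR adjusted p = 2.33e-12). The highest of its 3 treated libraries was well under the lowest Pt-resistant one. ADM was 3.05-fold higher, at 1.61 ± 0.113 on the log2 scale (interval 1.38 to 1.84, edgeR adjusted p = 2.29e-11). The ratio of VEGFA to ADM in CPM per kb was 6.95, 6.26 and 6.79 in Pt-resistant and 0.785, 0.979 and 0.882 in inhibitor-treated libraries, against 4.38, 5.49 and 4.65 in naive ones. Both genes are classical hypoxia targets, and their levels went opposite ways.

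Among the factors, EPAS1 rose by 0.37 ± 0.0924 on the log2 scale (edgeR adjusted p = 0.00125), with all 3 treated libraries above the Pt-resistant ones. HIF1A was higher by 0.21 ± 0.0843 (adjusted p = 0.032), a small difference between overlapping groups. That call did not hold when Pt-resistant replicate 2 was left out (0.16, adjusted p = 0.146), Pt-resistant replicate 3 (0.18, adjusted p = 0.117) or inhibitor-treated replicate 2 (0.16, adjusted p = 0.156), and with scaling by library size alone (0.18, adjusted p = 0.0688). ARNT was lower in all 3 treated libraries, but the log2 difference of -0.15 (interval -0.32 to 0.02) did not pass (adjusted p = 0.106), and it passed with scaling by library size alone (-0.19, adjusted p = 0.0492).

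For the hydroxylase gene EGLN1 the inhibitor gave a log2 difference of 0.08 with an interval of -0.09 to 0.26 (edgeR adjusted p = 0.414), and its treated libraries overlapped with the Pt-resistant ones at about the same raised level. EGLN3 was lower by -0.29 ± 0.116 on the log2 scale (adjusted p = 0.0338), with all treated libraries just under the Pt-resistant ones. For EGLN3 the call did not hold when any of 5 libraries was left out, namely Pt-resistant replicate 1 (-0.19, adjusted p = 0.174), Pt-resistant replicate 3 (-0.28, adjusted p = 0.0812) and inhibitor-treated replicates 1, 2 and 3 (adjusted p = 0.0539, 0.0509 and 0.13). Whether the 2 genes' responses differ was not tested.

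For the remaining targets no difference passed. NDRG1 showed -0.01 with an interval of -0.16 to 0.15 (edgeR adjusted p = 0.951), at a level of 114.7 CPM in treated cells. ANKRD37 showed 0.31 with the wide interval of -0.38 to 0.99 (adjusted p = 0.431).

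**Figure D3:**
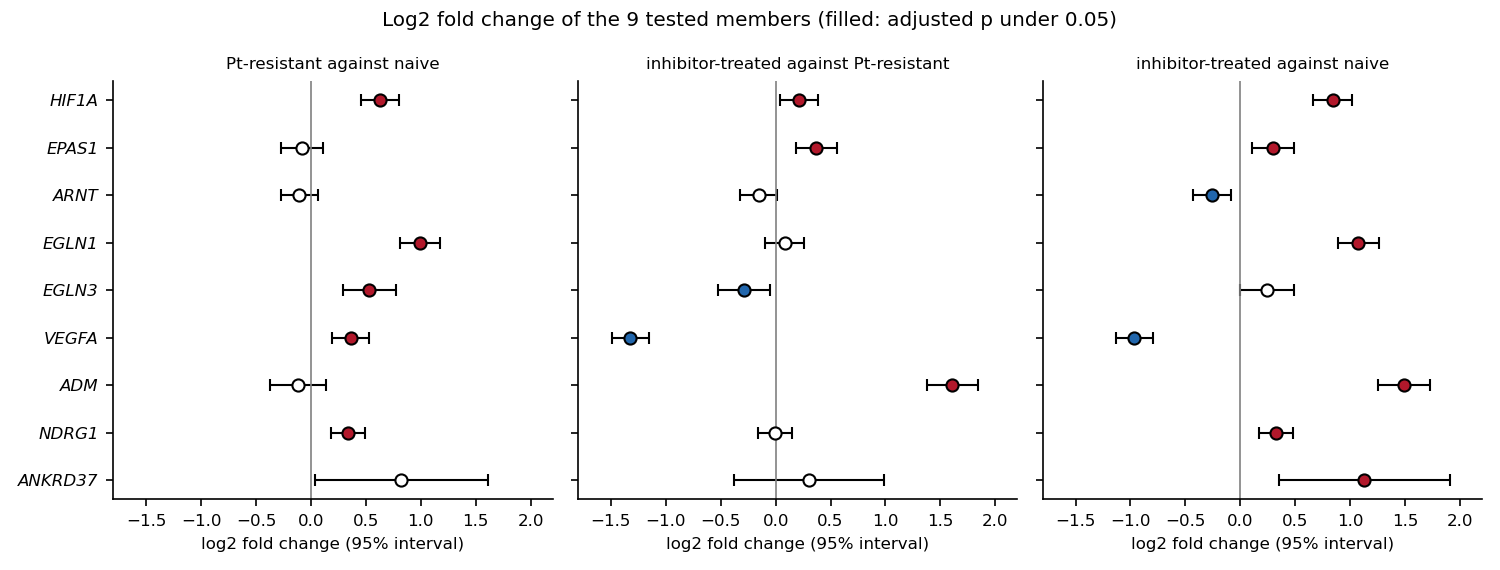
Log2 fold change (horizontal axis, with 95% interval) of the 9 tested genes in the 3 comparisons, with filled dots where the edgeR adjusted p was under 0.05, red for higher and blue for lower. VEGFA at -1.32 and ADM at 1.61 stand out in the middle panel, and EGLN1 is at 0.99 and 1.07 in the left and right panels.

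Inhibitor-treated Pt-resistant cells were also set against naive cells, with which they share neither the resistance nor the inhibitor, so that these 2 factors cannot be told apart here. Of the 9 tested genes, 6 were higher and 2 lower, where 32.2% of all tested genes were called higher, 31.2% lower and 63.4% in either direction. Libraries lay apart for 7 of the 9 and for 66.4% of all tested genes, and 3 of the 9 differed by 2-fold or more, as 19.8% of all tested genes did. EGLN1 was 2.10-fold higher (log2 1.07 ± 0.0899, edgeR adjusted p = 3.04e-10), ADM 2.81-fold higher (1.49 ± 0.114, adjusted p = 6.2e-11) and VEGFA 1.95-fold lower (-0.96 ± 0.0819, adjusted p = 3.94e-10). VEGFA was therefore above the naive level in Pt-resistant cells and below it under the inhibitor, while ADM was above it under the inhibitor only, with no difference passing in Pt-resistant cells.

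HIF1A was higher than in naive cells by 0.84 ± 0.085 on the log2 scale (edgeR adjusted p = 7.82e-09) and NDRG1 by 0.33 ± 0.0753 (adjusted p = 0.000568). Smaller or less secure calls were EPAS1, higher by 0.29 (adjusted p = 0.00812), and ARNT, lower at -0.26 (adjusted p = 0.0084). The EPAS1 call was lost without naive replicate 3 (0.22, adjusted p = 0.066) or inhibitor-treated replicate 2 (0.23, adjusted p = 0.0551), and the ARNT call without inhibitor-treated replicate 1 (-0.18, adjusted p = 0.0808). ANKRD37 was higher by 1.13 ± 0.375 (adjusted p = 0.0114), although its groups overlapped, and the call was lost without naive replicate 1 (0.88, adjusted p = 0.0724) or inhibitor-treated replicate 1 (0.72, adjusted p = 0.141). EGLN3 did not pass (0.24, adjusted p = 0.0793), and it passed without naive replicate 2 (0.42, adjusted p = 0.000847) or with no filter on low counts (0.23, adjusted p = 0.0454).

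Around these 10 genes, other parts of the oxygen-sensing machinery were read from a list of 16 genes, 15 of them tested. This list and those below were chosen with earlier results of these data known, so their shares called are descriptive only. In Pt-resistant against naive cells, 3 were higher and 2 lower (33.3%, against 59.1% of all tested genes), and the median over the list was 0.01 on the log2 scale. The lower ones were ARNT2, a relative of ARNT, from 23.5 to 14.3 CPM (-0.71), and HIF1AN, the asparagine hydroxylase FIH that blunts the alpha subunit's activation domain, from 61.1 to 49.9 CPM (-0.29). The higher ones were RBX1, a part of the VHL ligase (0.37), P4HTM, a membrane prolyl hydroxylase (0.54), and SIAH2, a ubiquitin ligase that acts on the EGLN proteins (0.55). The RBX1 call did not hold when Pt-resistant replicate 2 was left out, and ELOB (0.18 in the main fit) was called higher without Pt-resistant replicate 1. The number lower became 4 on leaving out naive replicate 2 or Pt-resistant replicate 1. HIF3A, which passed the filter on low counts in fits with a library left out but not in the main fit, was among these 4. The other gained call among the lower genes was VHL in the first case and CITED2 in the second. HIF3A was also called lower without Pt-resistant replicate 2 or 3.

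VHL itself, the substrate receptor of the ligase, was at 78.1, 69.8 and 82.5 CPM in the 3 groups. Its difference between Pt-resistant and naive cells did not pass (-0.16, edgeR adjusted p = 0.0982), although it passed without naive replicate 2. EGLN2, the remaining hydroxylase of the EGLN family, was low at 3.16, 2.69 and 2.23 CPM and passed in neither of the first 2 comparisons (adjusted p = 0.354 and 0.34). HIF3A, a further alpha subunit gene, had 39 counts in all and was not tested, with means of 0.784 CPM in naive cells, 0 in Pt-resistant and 0.0223 in inhibitor-treated cells.

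Under the inhibitor, 4 genes of the same list were higher and 6 lower than in Pt-resistant cells (66.7%, against 62.4% of all tested genes), with a median of -0.17. CITED2, which competes with the alpha subunits for their co-activators, rose from 33.8 to 72.8 CPM (1.11, edgeR adjusted p = 3.96e-10). Those co-activators, EP300 and CREBBP, fell by 0.60 and 0.71 on the log2 scale. CUL2, the scaffold of the VHL ligase, rose by 0.67, and VHL (0.24) and ELOC (0.23) were higher by less. The VHL call was lost without Pt-resistant replicate 2 or inhibitor-treated replicate 1, and the ELOC call without Pt-resistant replicate 1 or 3 or inhibitor-treated replicate 1 or 3, and without inhibitor-treated replicate 1 only 2 of the list were higher. SIAH1, OS9, P4HTM and ARNT2 made up the rest of those that fell, by 0.86, 0.68, 0.73 and 0.52 on the log2 scale.

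A further list, also chosen with earlier results known, held 30 genes known as hypoxia-inducible outside sugar metabolism. MIF was listed at 0 in every library, which need not mean that it was not expressed, and the other 29 were tested. In Pt-resistant against naive cells 15 were higher and 9 lower (82.8% called, against 59.1% of all tested genes), and their median log2 fold change was 0.20 against 0.01. Enzymes that modify collagen went both ways, with LOXL2 from 3.52 to 12.1 CPM (1.78) and PLOD2 from 50.6 to 94.8 CPM (0.91), but LOX from 99.1 to 71.6 CPM (-0.47) and PLOD1, a lysyl hydroxylase, also lower (-0.76). BHLHE41, a transcriptional repressor, went from 0.394 to 3.96 CPM (3.30). CA12, a cell-surface carbonic anhydrase like CA9, went from 45.5 to 96.9 CPM (1.09). The lower ones included ANGPTL4, a secreted inhibitor of lipoprotein lipase, at 9.57 and 2.97 CPM (-1.68) and HILPDA, a lipid droplet protein (-0.68).

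With the inhibitor, 14 of these 29 genes were higher and 8 lower than in Pt-resistant cells (75.9% called, against 62.4%), and the median was 0.27. LOXL2 reached 36.65 CPM (1.60) and PLOD2 149.7 CPM (0.66), so both were highest in the treated group. JMJD6, a hydroxylase of lysines, rose by 1.37, and ERO1A, an oxidase of the endoplasmic reticulum, by 0.72. Going the other way, DDIT4, which restrains mTOR signalling, was at 403 CPM in naive, 576 in Pt-resistant and 341 in treated cells (-0.76 under the inhibitor). CA12 (-0.35), KDM4C (-0.87), STC2 (-0.86) and ANGPTL4 (-1.10) fell as VEGFA did. Without Pt-resistant replicate 3 the number lower was 5, and small calls such as KDM3A and BNIP3 were lost when single libraries were left out.

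**Figure D4:**
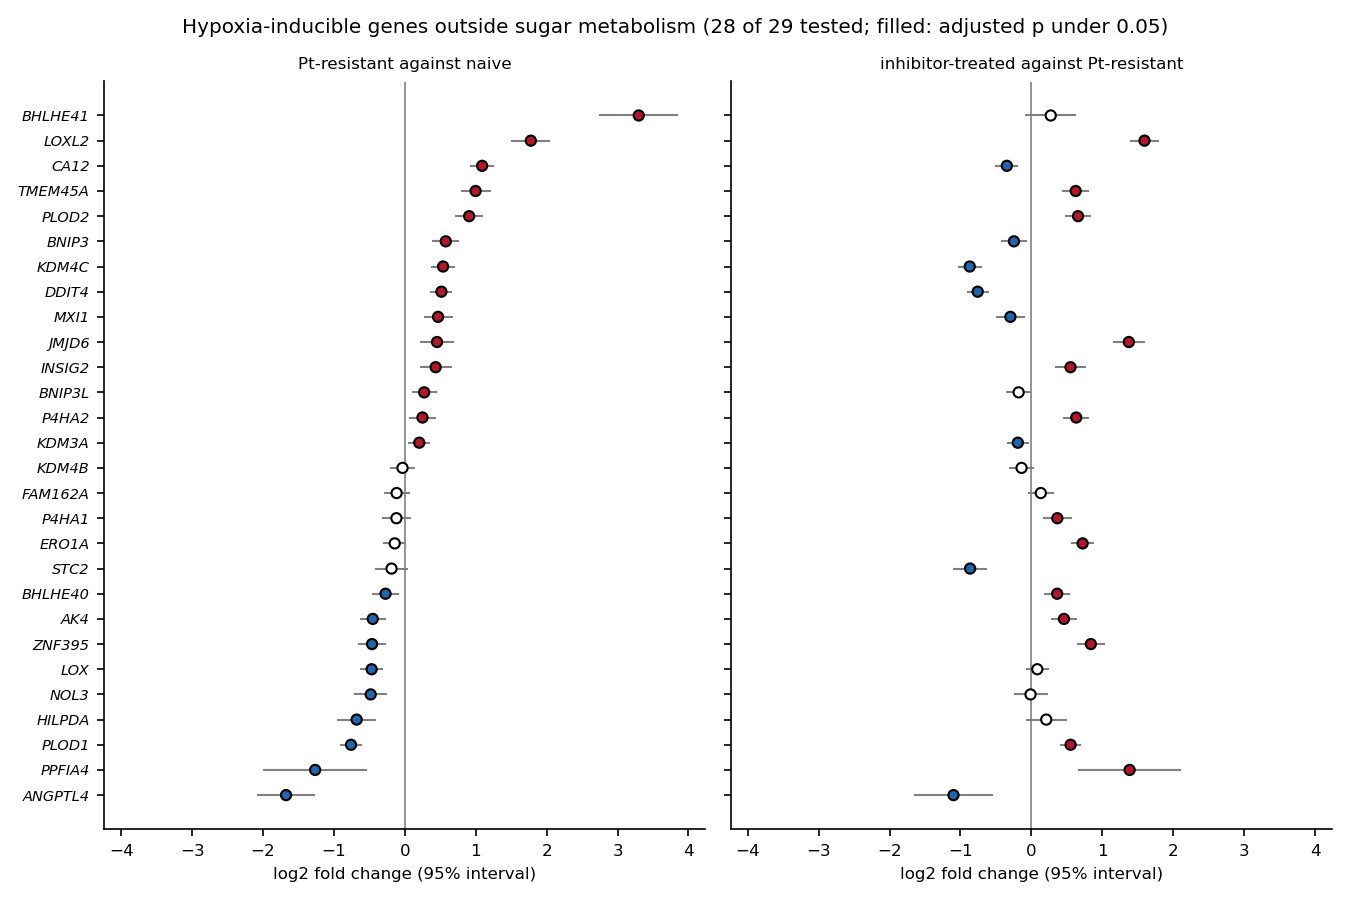
Log2 fold change (horizontal axis, with 95% interval) of 28 of the 29 tested hypoxia-inducible genes outside sugar metabolism, Pt-resistant against naive cells on the left and inhibitor-treated against Pt-resistant cells on the right, with filled dots where the edgeR adjusted p was under 0.05. Both panels use the same Pt-resistant libraries. BHLHE41 is highest on the left at 3.30, and LOXL2 is highest of the genes shown on the right at 1.60.

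Another list, also chosen with earlier results known, held 20 hypoxia-inducible genes of sugar metabolism, 19 of them tested. Here 1 was higher and 9 lower in Pt-resistant than in naive cells (52.6% called, against 59.1%), with a median of -0.22. ALDOC, an aldolase, went from 25.0 to 10.3 CPM (-1.28), PFKFB4, which makes the activator of phosphofructokinase, fell by 1.21 on the log2 scale, and HK1, a hexokinase, by 0.73. Only HK2, the hexokinase typical of tumours, was higher, at 69.8 and 90.3 CPM (0.37). Leaving out naive replicate 1 or Pt-resistant replicate 2 gave 2 higher, and leaving out Pt-resistant replicate 1 gave 3. VEGFA, NDRG1 and EGLN1 were thus higher in Pt-resistant cells while 9 of these targets were lower.

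In the inhibitor-treated group, 13 of the 19 were higher and 4 lower than in Pt-resistant cells (89.5% called, against 62.4%), with a median of 0.58. LDHA, lactate dehydrogenase A, was at 28.2 and 65.4 CPM (1.21), ALDOC at 10.3 and 31.7 CPM (1.62), and ENO2, an enolase, rose by 1.28. SLC2A1, the main glucose transporter of epithelial cells, was lower at 156 and 109 CPM (-0.52), as were PDK1, which shuts off pyruvate dehydrogenase (-0.70), HK2 (-0.26) and ALDOA (-0.52). The HK2 call was lost without Pt-resistant replicate 1 or inhibitor-treated replicate 1. Several of these genes have near-identical pseudogenes or overlapping neighbours, among them LDHA, ALDOA, GAPDH and PGAM1, whose reads the counting can leave out, so their levels are uncertain. The share of mitochondrial mRNAs was also lower in Pt-resistant than in both other groups, at 4.8% ± 0.367 against 7.12% ± 1 and 7.37% ± 1.04 (SD, n = 3), and its part in these counts was not tested.

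**Figure D5:**
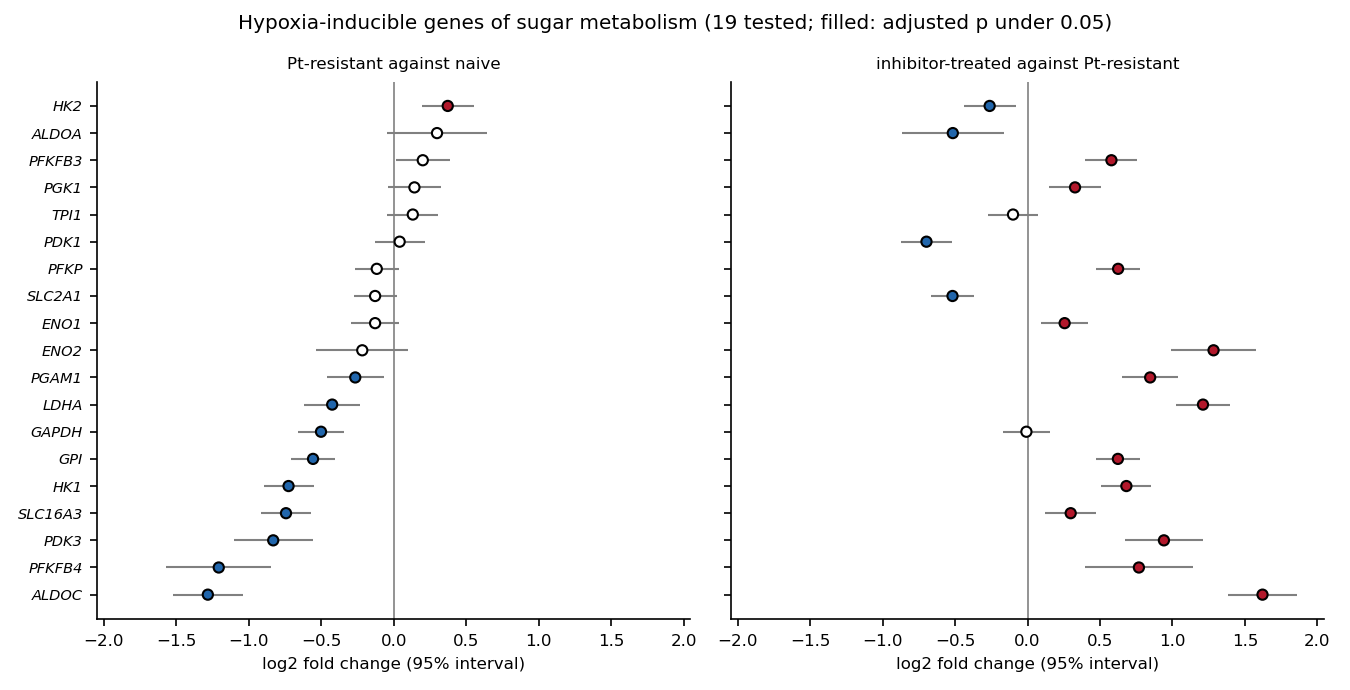
Log2 fold change (horizontal axis, with 95% interval) of the 19 tested hypoxia-inducible genes of sugar metabolism, Pt-resistant against naive cells on the left and inhibitor-treated against Pt-resistant cells on the right, with filled dots where the edgeR adjusted p was under 0.05. Both panels use the same Pt-resistant libraries, and 9 genes are called lower on the left and 13 higher on the right.

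Relatives and receptors of the 2 secreted members were read next. PGF, placental growth factor, a ligand of the VEGF family, was at 7.82 CPM in naive, 1.54 in Pt-resistant and 7.72 in inhibitor-treated cells. Its log2 difference was -2.33 in the first comparison (edgeR adjusted p = 1.17e-10) and 2.31 in the second (1.3e-10), opposite in sign to VEGFA in both. VEGFB, a further ligand, was lower at each step, at 66.2, 42.4 and 35 CPM (-0.64 and -0.28). The co-receptor NRP2 went from 6.97 to 59.1 and 90.2 CPM (3.08 and 0.61), and NRP1 from 17.6 to 35.2 and 54.7 CPM (1.00 and 0.64). The signalling receptors read low, with KDR at 1.16, 0.714 and 0.715 CPM, where no difference passed (Pt-resistant against naive did without Pt-resistant replicate 1). FLT1 was listed at 0 in every library, which by counting error alone allows up to 0.0198 CPM over the series (3 counts). As with MIF, this need not mean that FLT1 was not expressed.

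Adrenomedullin signals through CALCRL joined to RAMP2 or RAMP3. CALCRL was at 0.266 CPM in naive, 1.2 in Pt-resistant and 1.53 in inhibitor-treated cells, higher in Pt-resistant than in naive cells by 2.12 (edgeR adjusted p = 9.78e-05), and the difference under the inhibitor did not pass. RAMP2 was at 5.28, 4.95 and 5.61 CPM in the naive libraries, had no count in any Pt-resistant library and at most 0.2 CPM in an inhibitor-treated one. The fall of RAMP2 passed (adjusted p = 2.12e-11), whereas its call under the inhibitor (adjusted p = 0.0469) was lost without any 1 of Pt-resistant replicates 1 to 3 or inhibitor-treated replicates 1 and 2, and with DESeq2. RAMP3 was listed at 0 in every library, which again need not mean that it was not expressed. RAMP1, which makes the related CGRP receptor, was too low to test in the main fit, with means of 0.698, 0.0555 and 0.0619 CPM. It was tested and called lower in Pt-resistant than in naive cells without naive replicate 3 or any 1 Pt-resistant library. Against naive cells it was also called lower in inhibitor-treated cells without naive replicate 3 or any 1 inhibitor-treated library. ADM2, a related peptide, was at 52.3, 101 and 50.4 CPM (0.95 and -0.998), so it fell under the inhibitor where ADM rose.

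NDRG2, NDRG3 and NDRG4 did not follow NDRG1. All 3 were lower in Pt-resistant than in naive cells (-1.05, -0.81 and -1.38), where 29.4% of all tested genes were lower. Under the inhibitor all 3 were higher (1.34, 0.62 and 1.27), where 31.9% of all tested genes were. In inhibitor-treated against naive cells 0 of the 3 passed, where 63.4% of all tested genes did. In naive, Pt-resistant and treated cells NDRG2 was at 7.28, 3.54 and 8.93 CPM, NDRG3 at 55.4, 31.7 and 48.6 CPM, and NDRG4 at 9.31, 3.56 and 8.6 CPM. Of the other carbonic anhydrases, 4 of 11 were tested. The cytosolic CA2 was at 123, 255 and 94 CPM (1.05 and -1.44), the mitochondrial CA5B was lower in Pt-resistant than in naive cells (-1.71), and CA8, which lacks catalytic activity, rose in both comparisons (1.30 and 1.43).

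Across the 9 libraries, the log2 CPM of HIF1A, EGLN1 and NDRG1 correlated pairwise at Pearson's r of 0.942 to 0.946, and that of VEGFA and ADM at -0.959. These are descriptions over libraries of 3 groups and mostly restate the group means. Among 10555 tested genes with a symbol and a mean of at least 5 CPM, the 3 most like VEGFA were AKTIP (r = 0.996), GOT1 (0.993) and TRIB3 (0.992). Those most like ADM were AKR1B1 (0.996), CD40 (0.996) and PKIG (0.995), and those most like EGLN1 were LRP12, LGALS8 and PPIL4 (0.995 to 0.996). HIF1A was followed most closely by ZNF652 (0.993), EHHADH (0.987) and CLDN1 (0.985), and NDRG1 by HDAC9 (0.985), CREB5 (0.978) and VEZF1 (0.977). For ARNT these were HERC1, VPS13D and GARRE1 (0.981 to 0.988), and for EPAS1 they were GAB2, PALM2AKAP2 and PTPRJ (0.948 to 0.975). Those of EGLN3 were RNF32-DT, SLC30A1 and RELA (0.951 to 0.956), and those of ANKRD37 were CYRIB, UQCR11 and TCEAL1 (0.927 to 0.947). No member was among the 3 genes most like another.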

How the data were processed

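RNA was sequenced from 9 libraries of OVCAR4 cells, 3 per group. Reads went through FastQC and STAR with gene counting, and the authors deposited raw whole-number counts per gene. For tool versions, build, annotation and strand column: not given in the sources used here. Such counting drops multi-mapping reads and those over 2 or more genes. Symbols came from a gene name table by stable Ensembl ID (61369 of 61487), and 105 more, exon lengths and overlaps from GENCODE 29.

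In R 4.3.3, edgeR 4.0.16 kept 14630 genes (filterByExpr, minimum count 10; 99.88% of counts), scaled libraries by TMM and fitted 1 quasi-likelihood model over all 9, with Benjamini-Hochberg adjustment over all tested genes at 0.05. CPM are counts scaled to TMM-adjusted library totals. SE is the log2 fold change divided by the root of F. Counting intervals (95%) and floors (3 counts) cover counting error only. DESeq2 1.42.0 (the study's own tool), limma-voom (limma 3.58.1), other scalings and filters, fits on the groups compared, a replicate block and single libraries left out were the alternatives. The members and lists were chosen with earlier results of these data known. List genes past the threshold could be named. All members were named, as were preset regulators, receptor parts and NDRG relatives, and the 3 genes most like each member (Pearson's r of log2 CPM, prior count 2). The study's chromatin data were not used here. Of the list genes, 1 is counted in the totals but not reported here.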

Additional observations from a re-analysis of the deposited data

How the results depend on the processing

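Over 14 alternatives for each of the 9 tested genes in 3 comparisons, 360 values kept their side of the threshold, 14 lost the call, 4 gained one and 0 called values changed sign. Of the values that did not pass, 5 changed sign, 4 for NDRG1 and 1 for ANKRD37, all under the inhibitor against Pt-resistant cells. The calls of VEGFA, ADM, EGLN1 and NDRG1, and of HIF1A against naive cells, were among those that held in every one. VEGFA under the inhibitor ranged from -1.41 to -1.26 on the log2 scale, ADM from 1.53 to 1.68, and EGLN1 in Pt-resistant against naive cells from 0.96 to 1.02. Leaving out single libraries, the number of members lower under the inhibitor ranged from 1 to 2 (EGLN3 lost), and against naive cells also from 1 to 2 (ARNT lost). Calls of members higher changed in such fits as well. Under the inhibitor HIF1A was lost, and in inhibitor-treated against naive cells EPAS1 and ANKRD37 were lost and EGLN3 was gained. ANKRD37 was gained in Pt-resistant against naive cells. In the same way, chosen after seeing the data for the 3 lists of the HIF pathway, sugar genes higher in Pt-resistant cells ranged from 1 to 3 and regulators lower from 2 to 4, while under the inhibitor regulators higher ranged from 2 to 4 and targets outside sugar metabolism lower from 5 to 8. DESeq2 called 1 gene of the adrenomedullin list higher under the inhibitor in place of 2 (RAMP2 lost). The causes of these changes, beyond fewer samples, were not tested. Whether the replicate numbers pair the libraries was not settled. Of 9 pairs of the same number, 0 correlated above 0.1, but 7 of 9 libraries correlated best with their own number. With the replicate block, all counts of called members stayed as they were (5 higher and 0 lower, 3 and 2, and 6 and 2). Depth limits CA9 (8 counts in all) and ANKRD37.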
